A study of Mus musculus with 86 samples.

Results

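The data describe 349 stretches of the mouse genome at which the transcription factor SOX2 was called in both mitotic libraries of embryonic stem cells. Overlapping peak intervals of both asynchronous SOX2 lists were merged, which gave 51672 regions with a peak in each list. The 349 members, 0.675% of all regions, were chosen by the SOX2 peak calls themselves: they share at least 1 bp with a peak in each mitotic SOX2 list. Their SOX2 values are therefore given as descriptions, with no test. Mitotic replicate 1 called 3.37% of the regions and mitotic replicate 2 called 0.755%. Another 1391 regions were called in mitotic replicate 1 alone, 41 in mitotic replicate 2 alone and 49891 in neither. The members are 89.5% of what mitotic replicate 2 called but 20.1% of what mitotic replicate 1 called, so the shorter list largely sets who is a member.

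All cells were embryonic stem cells of strain 129S5/SvEvBrd, grown in serum with leukemia inhibitory factor (LIF). Mitotic cells were arrested with 100 ng/ml nocodazole, a microtubule poison, for 6 h and collected by shake-off, and asynchronous cells were untreated. ChIP-seq peak lists of SOX2 (antibody AF2018) and of the architectural protein CTCF (antibody ab70303) were used, with 2 mitotic and 2 asynchronous libraries of each factor, 8 of the 86 libraries of the series. Whether replicates are separate cultures is not stated by the labels, so differences between them may be only technical, and the arrested cells stand for mitosis under a drug. Peak lists hold no expression values, so the identity of the cells and the purity of the mitotic fraction could not be checked here.

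SOX2 is an HMG-box protein that bends DNA and, in embryonic stem cells, often binds next to OCT4 at enhancers of the pluripotency network. In mitosis chromosomes condense, transcription largely stops and many factors leave chromatin. Factors that stay on mitotic chromosomes are studied as mitotic bookmarks, which might help a cell resume its programme after division. CTCF binds insulators and the anchors of chromatin loops.

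The mitotic SOX2 lists held 1976 and 408 peaks, against 90266 and 63504 in the asynchronous lists, in the order replicate 1, replicate 2 that is kept for every pair of values below. Background coverage was 2.62 and 1.64 reads per 100 bp in the mitotic SOX2 libraries, against 2.48 and 1.61 in the asynchronous libraries. By this measure, the lowest local background over the shortest peak width, the mitotic over asynchronous ratios were 1.05 and 1.02 for libraries of the same replicate number, and mitotic replicate 2 was the shallower of its group. Read totals were not used here, so shares of reads kept below rest on this measure of depth and were not scaled by it. A fold here is the authors' ratio of coverage at the summit, the highest point of a peak, to a local background. It ranks peaks within its own list. Coverage in reads was solved from the authors' fold and p-value, as whole reads within 0.005, for 99.5% to 100% of the peaks tried. Members were ranked by the mean percentile of their strongest peak's fold in both mitotic lists, with rank 1 the highest. Asynchronous strength is the same percentile over both asynchronous lists.

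The promoters of 6 of the 10 highest-ranking members at gene starts are shown, because the mean mitotic summit lay inside their window of 250 bases before to 50 after the start (RefSeq, GRCm38.p6, the assembly of mm10). Capitals mark matches to any of the motifs searched. Those present are the OCT octamer ATGCAAAT, the SP GC box GGGCGG, the NFY letters CCAATC and the core of the CTCF motif, each on either strand, with overlapping matches run together.
Srrm4 promoter, chr5:116591768-116592067, minus strand: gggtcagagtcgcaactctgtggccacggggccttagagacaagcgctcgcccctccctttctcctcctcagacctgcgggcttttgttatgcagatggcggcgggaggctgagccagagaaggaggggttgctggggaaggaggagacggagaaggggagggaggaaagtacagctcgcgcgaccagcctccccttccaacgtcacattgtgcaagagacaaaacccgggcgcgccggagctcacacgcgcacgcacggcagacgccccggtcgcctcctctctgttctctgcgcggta
Nrarp promoter, chr2:25180508-25180807, plus strand: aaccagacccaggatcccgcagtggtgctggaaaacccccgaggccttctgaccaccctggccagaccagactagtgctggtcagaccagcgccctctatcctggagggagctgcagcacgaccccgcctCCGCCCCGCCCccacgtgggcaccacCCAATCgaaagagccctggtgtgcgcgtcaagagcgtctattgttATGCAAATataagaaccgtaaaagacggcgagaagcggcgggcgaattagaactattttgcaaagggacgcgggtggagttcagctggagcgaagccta
Pipox promoter, chr11:77893823-77894122, minus strand: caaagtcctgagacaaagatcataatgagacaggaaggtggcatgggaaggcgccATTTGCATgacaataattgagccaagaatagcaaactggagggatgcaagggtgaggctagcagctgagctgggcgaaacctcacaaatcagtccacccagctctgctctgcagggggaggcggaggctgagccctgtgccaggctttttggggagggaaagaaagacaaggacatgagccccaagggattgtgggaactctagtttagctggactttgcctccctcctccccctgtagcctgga
Crip2 promoter, chr12:113139986-113140285, plus strand: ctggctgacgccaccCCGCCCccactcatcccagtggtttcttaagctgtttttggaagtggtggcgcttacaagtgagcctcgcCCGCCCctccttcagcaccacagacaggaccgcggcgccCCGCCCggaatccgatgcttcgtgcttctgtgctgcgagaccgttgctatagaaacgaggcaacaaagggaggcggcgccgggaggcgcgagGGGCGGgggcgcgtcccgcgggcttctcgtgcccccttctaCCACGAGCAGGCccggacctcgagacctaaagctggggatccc
Gadd45g promoter, chr13:51846425-51846724, plus strand: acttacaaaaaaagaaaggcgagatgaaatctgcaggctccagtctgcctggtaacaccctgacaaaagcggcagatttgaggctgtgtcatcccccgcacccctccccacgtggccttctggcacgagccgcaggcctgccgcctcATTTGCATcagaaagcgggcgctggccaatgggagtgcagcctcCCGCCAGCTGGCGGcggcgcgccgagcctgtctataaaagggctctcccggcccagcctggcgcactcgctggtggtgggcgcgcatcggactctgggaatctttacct
Shroom3 promoter, chr5:92897743-92898042, plus strand: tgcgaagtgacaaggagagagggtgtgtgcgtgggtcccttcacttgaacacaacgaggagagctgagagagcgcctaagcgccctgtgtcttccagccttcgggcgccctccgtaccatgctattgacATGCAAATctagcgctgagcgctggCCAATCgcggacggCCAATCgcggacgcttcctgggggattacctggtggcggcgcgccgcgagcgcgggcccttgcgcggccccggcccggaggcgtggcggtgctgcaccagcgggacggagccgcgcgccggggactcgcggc

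The octamer, the letters that OCT4 and related POU proteins bind, stood in the Nrarp, Pipox, Gadd45g and Shroom3 windows. The Crip2 window held 4 GC boxes, the letters bound by SP1 and its relatives, and 1 CTCF core. The Gadd45g window also held 2 overlapping matches to the CTCF core. In the Srrm4 window no letters of the 10 motifs were found. The mean mitotic summit lay 154 bp upstream of the start of Srrm4, 199 bp upstream for Pipox, 52 bp for Crip2, 124 bp for Gadd45g and 134 bp for Shroom3, and 5 bp downstream for Nrarp.

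A microRNA locus also carried a member. The mature let-7i sequences are given with the seed, bases 2 to 8, in capitals (RefSeq, GRCm38.p6), because the mitotic summit of replicate 1 lay inside the let-7i hairpin. The let-7 family restrains proliferation and self-renewal as cells differentiate.
mmu-let-7i-5p, chr10:122985698-122985719, minus strand: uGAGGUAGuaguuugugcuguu
mmu-let-7i-3p, chr10:122985642-122985663, minus strand: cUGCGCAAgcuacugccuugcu

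Across the members SOX2 was detected in mitosis at a fraction of its asynchronous coverage. At the strongest peak of each member, median coverage at the summit was 39 and 24 reads in the mitotic libraries, against 140 and 99 reads in the asynchronous libraries. Median local background was 6.37 and 3.43 reads in mitotic cells, against 9.50 and 6.35 reads in asynchronous cells. Taking reads above the local background, and leaving out 7 members of very high background described below, the median member kept 27.1% in replicate 1 (268 members solved in both conditions, quartiles 18.3% to 38.5%) and 23.8% in replicate 2 (312 members, 15.4% to 33.4%). The highest value was 79.3% in replicate 1 and 78.6% in replicate 2, so outside those 7 no member with solved coverage reached its asynchronous level, while 27 and 20 members kept at least 50%. In bulk chromatin, fewer cells with SOX2 bound and less SOX2 per cell cannot be told apart. Signal from any non-mitotic cells in the mitotic fraction cannot be separated either, as its purity could not be checked. These shares describe the contrast that chose the members and carry no test. A weak region can be a member only if it kept a large share, since a peak has to be called. The median share was 21.1% and 20.2% for 158 members of strength 90 or more, and 37.2% and 33.5% for 110 weaker members. Members with the strongest asynchronous peaks, whose p-values lie beyond what could be solved, are missing from these shares.

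Nrarp, encoding an inhibitor of Notch signalling, kept much of its coverage: 150 and 83 reads in mitotic cells, against 225 and 175 reads in asynchronous cells. The shares above background were 65.9% and 45.7%. Marcksl1, encoding an actin-binding substrate of protein kinase C, had 84 and 53 reads in mitotic cells, against 106 and 93 in asynchronous cells, or 79.3% and 53.4%. At Ccdc47, encoding a calcium-binding protein of the endoplasmic reticulum, coverage was 53 and 32 reads in mitotic cells and 81 and 46 reads in asynchronous cells, or 67.0% and 69.7%. In each of these regions both mitotic libraries were below the asynchronous library of the same number. Lin28a, whose product blocks let-7 maturation, kept less, with 49 and 35 reads in mitotic cells, against 246 and 166 in asynchronous cells, or 18.6% and 18.4%. Marcksl1 and Ccdc47 were picked after their values were seen, as members with the highest mean share.

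The 20 strongest peaks of each mitotic list all lay in members, as did 82 of the strongest 100 in replicate 1 and 99 of the strongest 100 in replicate 2. The first-ranked member (7:63956044-63958391, mm10) lay 18.3 kb from Klf13, a Krüppel-like zinc finger gene. Its folds were 20.9 and 16.2 in mitotic cells, the highest fold of each mitotic list, against 30.0 and 31.1 in asynchronous cells. The second (17:15206787-15208901) lay 118 kb from the nearest protein-coding gene, Ermard, and had 123 and 86 reads in mitotic cells, against 249 and 176 in asynchronous cells. It had no CTCF peak in any library. Ranks 3, 7 and 15 lay at the starts of Srrm4, which encodes a splicing factor of neural microexons, Nrarp, and Il17rd, which encodes the FGF signalling inhibitor SEF. Srrm4 had 95 and 71 reads in mitotic cells, against 232 and 161 reads in asynchronous cells. Near Tcf7, the gene of a Wnt-responsive HMG-box factor, the member 3.18 kb away had 78 and 49 reads in mitotic cells and 174 and 110 in asynchronous cells. At the Ermard, Srrm4 and Tcf7 regions, too, the mitotic reads lay below the asynchronous reads of the same replicate number.

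The rest of the leading 15 lay near Spen, which encodes an RNA-binding repressor needed for X inactivation, within the cadherin gene Cdh4, near Lrrc74a, near Sertad4, within the gene body of Abca4, which encodes a retinal lipid transporter, next to Rif1, whose product acts in replication timing and repair, within the ion channel gene Asic2, at Midn, which encodes a protein that feeds substrates to the proteasome, and at Aim2, the gene of a cytosolic DNA sensor. Mitotic folds of the leading 15 ran from 7.97 to 20.9 in replicate 1 and from 9.21 to 16.2 in replicate 2. Over all members the median mitotic folds were 5.23 and 5.19, against asynchronous medians of 16.1 and 13.8. Asynchronous strength varied among the leading 15. Midn, Tcf7 and Srrm4 had strengths of 94.8, 94.9 and 96.3, close to the median member at 94.5, while Abca4 and Rif1 had 99.9 and 99.8. All of these genes' members still lay within the strongest 10% of asynchronous regions, which held 201 members.

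**Figure D1:**
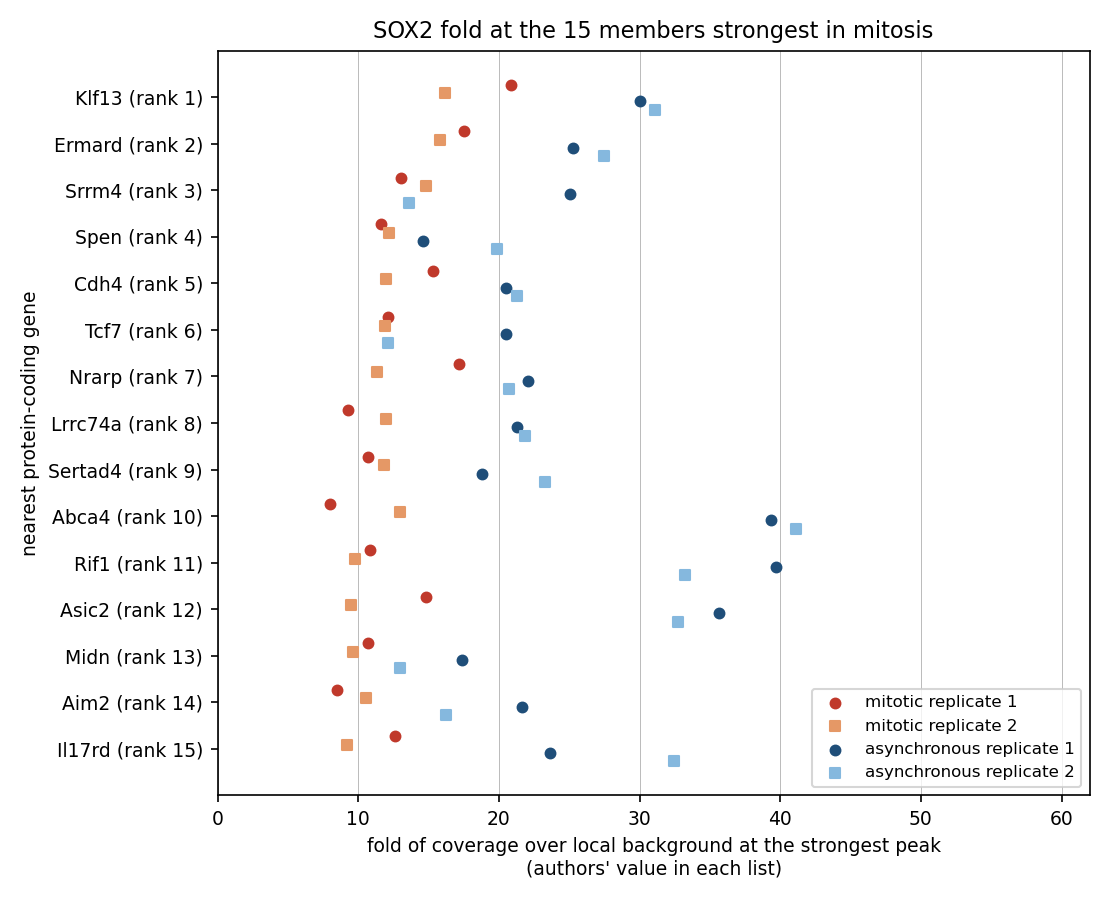
SOX2 fold over local background (x axis, the authors' value) at the 15 members ranked highest in the mitotic lists (y axis, nearest protein-coding gene), with mitotic replicates in red and orange and asynchronous replicates in blue. Each list has its own scale of folds, and Klf13 leads both mitotic lists at 20.9 and 16.2.

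The mitotic peaks were narrower than the merged regions and mostly stood close to the asynchronous summits. The median member was 1710 bp wide, and mitotic peaks covered a median of 515 bp of it in replicate 1 and 264 bp in replicate 2. A region merges peaks of both asynchronous lists, so it can be wider than a single peak. Over whole lists the median peak width was 325 and 256 bp in mitotic libraries, against 435 and 408 bp in asynchronous libraries. The summits of both mitotic replicates were a median of 48 bp apart and within 100 bp of each other in 266 of 349 members (76.2%). Asynchronous replicates were 22 bp apart and within 100 bp in 90.5%. From the mitotic to the asynchronous summit of the same number the median distance was 45 and 47 bp, and 78.8% and 77.9% of members had them within 100 bp. More than 1 mitotic peak fell in 41 members in replicate 1 and in 10 in replicate 2. The median region called in neither mitotic library was 643 bp wide, so shares at gene starts, gene boundaries and CTCF regions are also given at the summit below. Shares near tRNA and microRNA genes are given for whole regions only, so the greater width of the members enters them.

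Many members lay at the starts of genes. Of the 349 members, 140 (40.1%, 95% Wilson interval 35.1 to 45.3) lay within 1 kb of a listed start of a protein-coding gene, against 12.7% of regions called in neither mitotic library and 13.9% of all regions. Placed by the asynchronous summit alone, 34.7% of members were at a start (29.9 to 39.8), against 11.3% of regions called in neither. Intervals cover counting error over regions only, and no test over regions was made. Regions called in mitotic replicate 1 alone had a higher share than the members, 52.0% (49.4 to 54.7). Counting either boundary of a gene, 169 members (48.4%) lay within 1 kb, against 16.7% of regions called in neither and 18.1% of all regions. Of these 169, 122 had a listed start in reach, 6 only the far end of a gene and 41 neither, because starts were listed for 17491 of 21883 protein-coding genes. Away from gene boundaries, 72 members lay inside genes and 108 outside them.

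**Figure D2:**
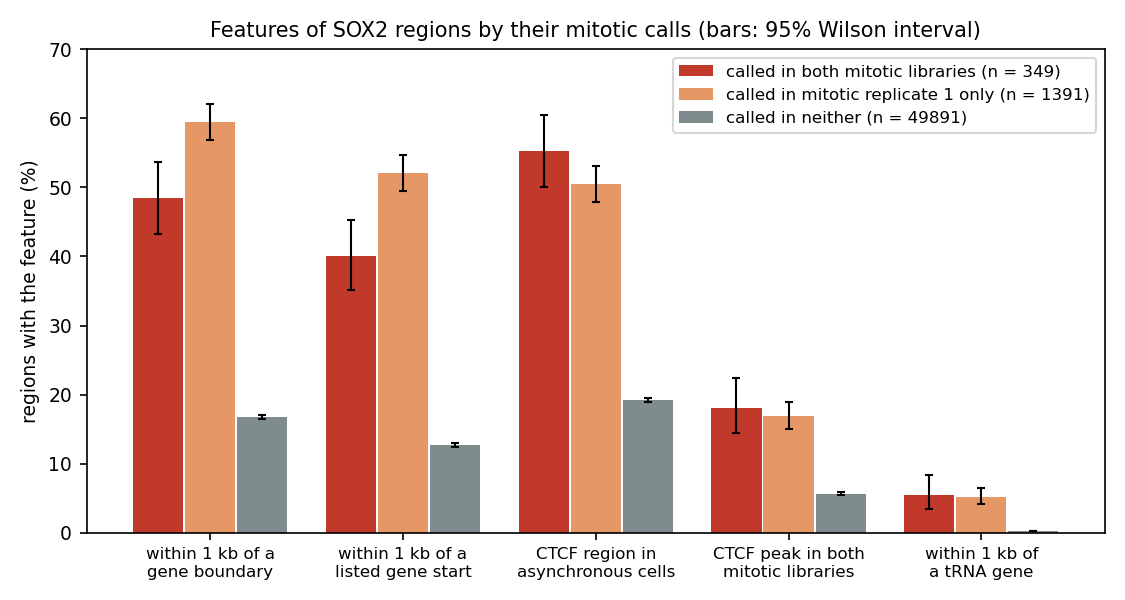
Share of SOX2 regions with each feature (y axis, percent) for regions called in both mitotic libraries (red), in mitotic replicate 1 only (orange) and in neither (grey), with 95% Wilson intervals over regions. Gene boundaries were near 48.4% of the members and 16.7% of regions called in neither, and CTCF regions overlapped 55.3% and 19.2%.

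At gene starts the mitotic summits gathered close to the start itself. In 118 members both mitotic summits lay within 1 kb of a listed gene start, each summit measured to its nearest start. The median of their mean position was 67 bp upstream (quartiles 207 bp upstream to 110 bp downstream), 68 (57.6%) were upstream, and 32 were within 100 bp of the start. The 10 highest-ranking of them were Srrm4, Nrarp, Il17rd, Pipox (sarcosine and pipecolic acid oxidase), Crip2 (a LIM-domain protein), Phc1 (a Polycomb subunit), Gadd45g (a stress-response protein), Shroom3 (an actin-binding protein of apical constriction), Lrrc58 and Etfrf1 (a mitochondrial flavoprotein regulator). Pipox had folds of 13.8 and 8.74 in mitotic cells, against 22.8 and 29.9 in asynchronous cells. Gadd45g had 6.38 and 6.89 in mitotic cells, against 34.4 and 33.2 in asynchronous cells. Crip2 was the weakest of the 10 in asynchronous strength, at 87.4. It had 60 and 36 reads in mitotic cells, against 138 and 82 in asynchronous cells, or 40.5% and 44.5% above background.

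**Figure D3:**
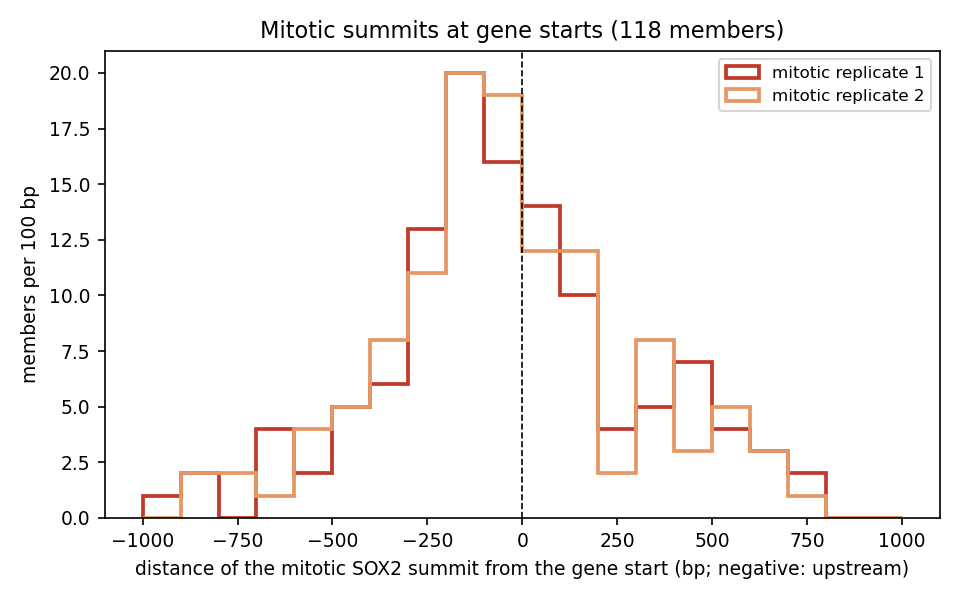
Number of members per 100 bp (y axis) by the distance of the mitotic SOX2 summit from the gene start (x axis, bp, upstream negative) for mitotic replicates 1 (red) and 2 (orange), over 118 members. In both replicates the summits crowd around the start, with a median 67 bp upstream.

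The gene starts reached by members were GC-rich. Both mitotic summits of a member lay within 1 kb of 151 listed starts of 128 genes. Their 300-base windows had a median GC content of 65.3% and a median ratio of observed to expected CpG of 0.86, against 61.3% and 0.76 at starts whose SOX2 region was called in neither mitotic library, and 56.3% and 0.57 over all 21262 listed starts. Starts reached in mitotic replicate 1 alone had 65.7% and 0.86, the same as the members within rounding of the ratio. The GC box stood in 76.8% of the member windows, 76.8% of those reached in mitotic replicate 1 alone, 66.3% of those called in neither and 46.2% of all windows. The OCT octamer was in 10 of 151 member windows (6.62%, 3.64 to 11.8), against 1.61% of windows reached in mitotic replicate 1 alone, 1.75% of those called in neither and 1.66% of all windows. The 10 genes with it were Nrarp, Pipox, Gadd45g, Shroom3, Chchd10, Gcnt2, Kansl1l, Plppr2, Zfp428 and Zswim6. Counted by gene, so that neighbouring starts of a gene count once, the octamer was in 7.81% of 128 member genes (4.30 to 13.8) and 1.90% of all 17491 genes with a listed start. The SOX heptamer CATTGTT was also in 10 member windows (6.62%, 3.64 to 11.8), against 4.26% (3.10 to 5.81) of those reached in mitotic replicate 1 alone, 2.21% of those called in neither, 3.62% of those with no SOX2 region and 3.25% of all windows. The member windows with it include those of the neighbouring Wnt pathway genes Frat1 and Frat2. The CTCF core was in 15.2% of member windows, 12.8% of those reached in mitotic replicate 1 alone, 12.7% of those called in neither and 9.88% of all windows. NRF1, YY1, ETS and Kaiso letters were in 3.31%, 3.31%, 3.97% and 0.66% of member windows, against 1.33%, 1.21%, 5.15% and 0.67% of all windows. Windows reached in mitotic replicate 1 alone held NRF1 and YY1 letters in 2.88% and 1.96%. NFY letters were in 19.9% of member windows, against 18.2% of all windows, and the CRE in none, against 2.23%. The motif searches were read as descriptions of letters in these windows, without a test.

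The share at gene boundaries changed with asynchronous strength, which was cut into 10 classes of equal size (deciles). Among the 201 members in decile 10, the strongest, 36.3% (30.0 to 43.2) lay within 1 kb of a gene boundary, against 5.64% of regions of that decile called in neither. Regions of that decile called in mitotic replicate 1 alone had a share near that of the members, 30.6% (25.6 to 36.1). In decile 9 the share was 66.7% of 75 members, against 8.77% of regions called in neither, and in decile 8 it was 69.0% of 42 members, against 10.8%. Decile 7 held 17 members, 13 of them at a gene boundary (76.5%), against 12.2%. Fewer than 10 members lay in each weaker decile. CTCF overlap followed no such course: it was 52.9% to 57.1% of members from decile 7 to decile 10, against 13.2% to 18.5% of regions called in neither. In decile 10 it was 45.2% (39.6 to 51.0) of regions called in mitotic replicate 1 alone.

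**Figure D4:**
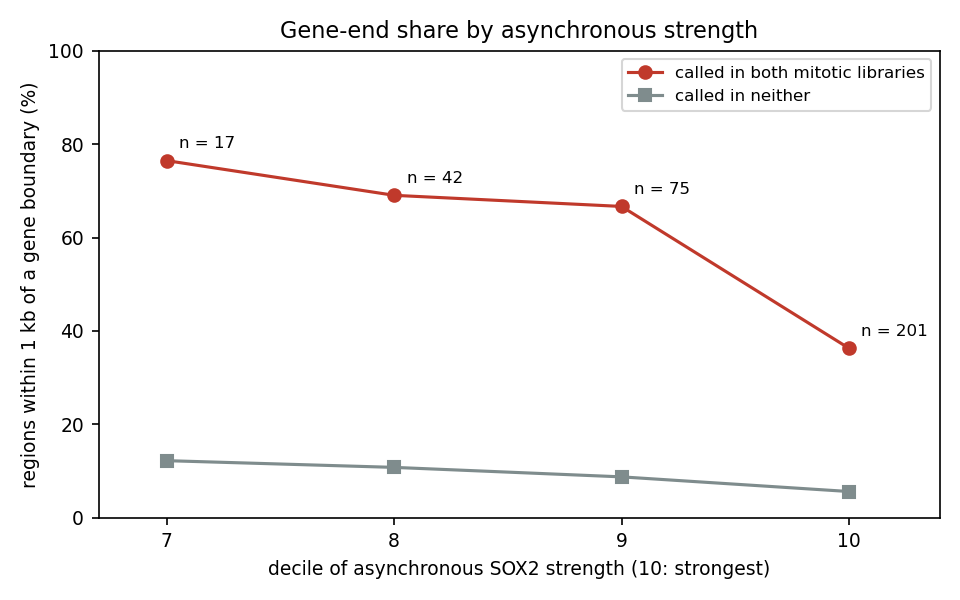
Share of regions within 1 kb of a protein-coding gene boundary (y axis, percent) by decile of asynchronous SOX2 strength (x axis, 10 the strongest) for members (red, with their number) and regions called in neither mitotic library (grey). Members stood at 76.5% in decile 7, which holds 17, and at 36.3% in decile 10.

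Genes of transfer RNA, which RNA polymerase III transcribes, were near 19 of the 349 members (5.44%, 3.51 to 8.35), against 0.226% of regions called in neither and 0.397% of all regions. Regions called in mitotic replicate 1 alone had a like share, 5.18%. Of the 19 members 12 were near more than 1 tRNA gene, and together they reached 42 of the 408 annotated tRNA genes. In 13 of them the mitotic summit was within 100 bp of a tRNA gene, 13 lay away from boundaries of protein-coding genes, and 15 overlapped a CTCF region. The member with the highest rank lay beside n-TRtct5 at Aim2 (1:173389453-173390628) and had 54 and 42 reads in mitotic cells, against 149 and 97 in asynchronous cells. At n-TSgct3 near Borcs6 (11:69061860-69064087), in a stretch with 4 tRNA genes, folds were 7.46 and 7.57 in mitotic cells and 10.2 and 10.9 in asynchronous cells. At n-TRtct1 near Osbp (19:12009156-12012941), with 6 tRNA genes, there were 73 and 31 reads in mitotic cells, against 111 and 68 in asynchronous cells. The mitotic reads were below the asynchronous ones in each region given in reads. Of the 19, 7 lay on chromosome 13, between Trim27 and H4c8, where the major histone and tRNA gene clusters lie. The members near tRNA genes kept a median of 40.4% and 41.3% of their asynchronous reads above background, against 26.04% and 25.2% for 249 members away from them. Of the 19, 13 had a strength under 90, the range in which members as a whole kept 37.2% and 33.5%.

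MicroRNA genes were within 1 kb of 3 members (0.860%, 0.293 to 2.496), against 1.58% of regions called in mitotic replicate 1 alone and 0.348% of all regions, which the members' interval covers. The let-7i member (10:122984893-122986889) ranked 29 and had 57 and 27 reads in mitotic cells, against 79 and 66 in asynchronous cells. Its mitotic summit in replicate 1 was at 122985682, inside the hairpin (122985640-122985724), and in replicate 2 at 122985594, outside it. The member at miR-760 ranked 62, with 54 and 34 reads in mitotic cells, against 140 and 108 in asynchronous cells. The shares above background were 39.1% and 29.4%. The third lay upstream of miR-17, the first microRNA of the growth-promoting miR-17-92 cluster, with folds of 6.91 and 4.21 in mitotic cells, against 14.0 and 9.10 in asynchronous cells. Its summits were 2.79 and 2.76 kb from the middle of the miR-17 hairpin.

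Of 220 genes in 9 lists, 19 (8.64%) had a member within 50 kb, against 803 of 21883 protein-coding genes (3.67%). A SOX2 region lay that near to 218 list genes and to 18763 protein-coding genes, and 4.28% of the latter had a member. The number of regions near a gene was not matched. The signalling list of LIF, BMP, Nodal, FGF and Wnt genes had the most genes with a member, 6 of 35. These were Il17rd, Dusp6, Spry4, Etv4, Lifr and Socs3. Il17rd, Dusp6 and Spry4 encode feedback inhibitors of FGF and ERK signalling and Etv4 a transcription factor that it induces, while Lifr encodes the LIF receptor and Socs3 its feedback inhibitor. Il17rd had 81 and 44 reads in mitotic cells, against 261 and 208 in asynchronous cells, with the summit 402 bp into the gene. Dusp6 had 43 and 37 reads in mitotic cells, against 121 and 73 in asynchronous cells, with the summit 1526 bp upstream of the start. The member at Spry4 (18:38600727-38603953) also lay beside Arhgap26 and had folds of 6.97 and 7.90 in mitotic cells, against 21.0 and 19.9 in asynchronous cells. These 3 ranked 15, 26 and 28, whereas Etv4 ranked 184 and Lifr and Socs3 298 and 311. Spry2 and Etv5, of the same pathway, had no member within 50 kb, though mitotic replicate 1 alone called at least 1 region near each.

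The pluripotency list had members near 3 of 30 genes. The Phc1 member ranked 34, that of Lin28a 123 and that of Pou5f1, the OCT4 gene, 207. At Pou5f1 the mitotic summits lay 1.97 kb upstream of the start, the side on which its distal enhancer is known to lie, and mitotic coverage was 63 and 25 reads. At Lin28a the summits lay 41 bp upstream of the start. No gene of the mesoderm, endoderm and trophoblast list (20 genes) or of the neural list (20 genes) had a member, although 19 genes of each had an asynchronous SOX2 region within 50 kb. At the background share of 3.67% a list of 20 holds few genes in any case. The replication and repair list had 4 of 24: Rif1, Gadd45g, Trp53, the gene of p53, and Brca1. The Polycomb list had Cbx2 and Ring1 (2 of 22), transcription and splicing the splicing factor gene Srsf3, cohesin and condensin Stag1 (1 of 23), and the mitotic list Aurkb (1 of 26), which encodes the Aurora B kinase and had members 7425 and 10196 bp away. Both Aurkb members are among those near tRNA genes. Several of these members also lay near other genes, and the one near Brca1 was at the start of Nbr1. The lists are described by these counts alone.

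CTCF was measured in libraries that played no part in choosing the members. A CTCF region found in both asynchronous CTCF libraries overlapped 193 members (55.3%, 50.1 to 60.4), against 19.2% of regions called in neither mitotic SOX2 library and 20.3% of all SOX2 regions. Where a CTCF summit also had to lie within 100 bp of an asynchronous SOX2 summit, it was 26.6% of members, against 9.71% of regions called in neither. Regions called in mitotic SOX2 replicate 1 alone had a share near that of the members, 50.5% (47.9 to 53.2), so CTCF overlap was not particular to the members. A CTCF peak was called in 25.2% and 18.3% of members in mitotic cells, against 65.9% and 67.6% in asynchronous cells. The means were 21.8% ± 4.86 in mitotic and 66.8% ± 1.22 in asynchronous libraries (SD, n = 2 each), a difference of -45.0 percentage points with no overlap between the groups. The two-sided exact permutation test gave p = 0.333, the smallest it can give with 2 against 2. Regions called in mitotic SOX2 replicate 1 alone had 27.2% and 18.7% in mitotic cells, against 61.4% and 61.7% in asynchronous cells. Over all SOX2 regions the shares were 8.34% and 6.33% in mitotic cells, against 23.5% and 23.6% in asynchronous cells.

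The CTCF calls at members followed those of other regions in proportion. The mitotic mean was 0.326 of the asynchronous mean at members and 0.307 at regions called in neither. The difference at members minus that at regions called in neither was -29.6 percentage points (exact permutation p = 0.333, the smallest possible). Of the 193 members overlapping a CTCF region, 60 (31.1%, 24.98 to 37.9) had a CTCF peak in both mitotic CTCF libraries, against 29.2% (28.3 to 30.2) of such regions called in neither mitotic SOX2 library and 31.6% (28.3 to 35.1) of those called in mitotic SOX2 replicate 1 alone. Over all 57992 CTCF regions of the asynchronous libraries, 24.5% were called in both mitotic CTCF libraries, 33.0% in replicate 1 and 25.4% in replicate 2. The share was 24.2% of 95 such members at gene boundaries, against 28.2% there in regions called in mitotic SOX2 replicate 1 alone and 24.4% in those called in neither. Away from gene boundaries it was 37.8% of 98 members (28.8 to 47.6), against 36.9% (31.4 to 42.7) and 31.3% (30.2 to 32.4) in the same groups, and these intervals overlap. Counting all members, 63 (18.1%) had a CTCF peak in both mitotic CTCF libraries, against 16.9% (15.0 to 19.0) of regions called in mitotic SOX2 replicate 1 alone and 6.04% of all SOX2 regions.

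**Figure D5:**
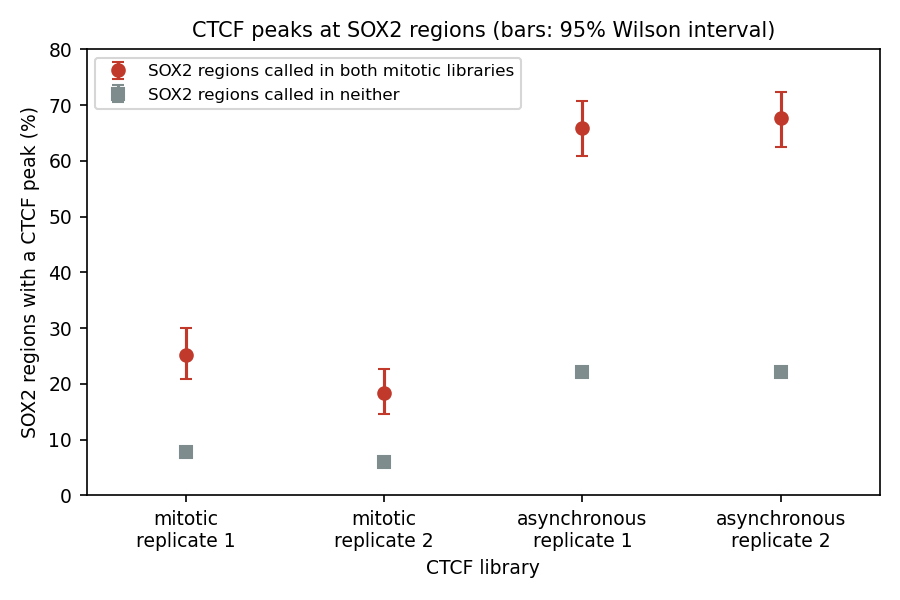
Share of SOX2 regions with a CTCF peak (y axis, percent) in each CTCF library (x axis), for regions called in both mitotic SOX2 libraries (red circles) and in neither (grey squares), with 95% Wilson intervals over regions. Members had a CTCF peak in 25.2% and 18.3% of cases in mitotic libraries and in 65.9% and 67.6% in asynchronous libraries.

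The summits of the strongest CTCF and SOX2 peaks of a member were mostly apart. In the 193 members the summit of the asynchronous CTCF peak of highest fold was a median of 283 and 277 bp from the mitotic SOX2 summit. It was within 100 bp in 28.5% and 26.4%. Summits of weaker CTCF peaks that might lie nearer were not counted. Median mitotic SOX2 folds were 5.57 and 4.99 for 95 members at a gene boundary with CTCF, and 5.08 and 5.70 for 82 members away from gene boundaries without CTCF. The asynchronous folds of the same groups had medians of 11.9 and 11.1 with gene boundary and CTCF, and 21.7 and 18.5 without either.

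A set of 49 members lay away from gene boundaries and had no CTCF peak in any library, with median folds of 4.79 and 5.46 in mitotic cells, against 21.6 and 18.1 in asynchronous cells. The 8 ranked highest among them were those near Ermard, Tcf7 and Aim2 and then those within Arid5b, which encodes an AT-rich DNA-binding protein, within the argonaute gene Ago1, 102 kb from Arg1, 20.3 kb from Chd1l and 87.8 kb from Chd6, both genes of chromatin remodellers. The Arid5b member (10:68136332-68138650) had 64 and 36 reads in mitotic cells and folds of 9.98 and 9.43, and asynchronous folds of 33.8 and 32.2. The Arg1 member (10:25028590-25030023) had folds of 7.60 and 9.43 in mitotic cells, against 37.8 and 40.7 in asynchronous cells.

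Chromosome 11 held 49 of 349 members (14.0%, 10.8 to 18.1), against 7.36% of all regions and 8.12% of those called in mitotic replicate 1 alone. Chromosome X held 1 member (0.287%, 0.0506 to 1.60), against 1.93% of all regions and 0.431% (0.198 to 0.938) of those called in mitotic replicate 1 alone. That member lay 2.84 kb from Txlng and was among the strongest asynchronous regions, with folds of 3.40 and 5.10 in mitotic cells, against 48.0 and 46.5 in asynchronous cells. Within 50 kb of each other lay 15 pairs of neighbouring members. The closest pair, 1605 bp apart, was at Bahcc1 (11:120230520-120231815 and 11:120233421-120236792), and the next, 5850 bp apart, at Shf. The Frat1 and Frat2 pair, 16.9 kb apart, had a member at each of these paralogous genes.

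A few members had very high local background. In 7 members the local background of a mitotic library was at least 5 times its lowest value, and these include 4 of the 5 members with an asynchronous strength under 50. None of the 7 was at a gene boundary and 6 overlapped a CTCF region. The member near Vmn1r77 (7:12010388-12010964) had 185 and 108 reads over a background of 68.3 and 46.9 in mitotic cells, against 133 and 120 reads over 50.5 and 49.7 in asynchronous cells. Above background it thus had more reads in the mitotic library of replicate 1 and fewer in that of replicate 2. The Vmn1r238 member had more above background in the mitotic library of replicate 2, with 239 reads over 128, against 48 over 21.8 in asynchronous cells. That near Ly6c2 (15:75085515-75087026) had 401 and 310 reads over 279 and 175, with folds of 1.43 and 1.76. Members near Vmn1r238 and Esp38 had folds of 1.33 and 1.86, and 1.51 and 1.58, in mitotic cells, and together with the Ly6c2 member had a CTCF peak in all 4 CTCF libraries. The fifth weak member lay near Abt1 beside a tRNA gene. It had 69 and 31 reads in mitotic cells, against 142 and 59 in asynchronous cells, or 43.1% and 58.5% above background. Without the 7 members, 342 remained, of which 49.4% lay at gene boundaries and 54.7% overlapped a CTCF region.

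The calls near the threshold, a q-value of 0.05 as read from the lowest −log10 q of each list, rested on few reads. The members just inside it were near Btn2a2, with a −log10 q of 1.48 in mitotic replicate 2, near Meis1, at 1.82 in replicate 1, and near Zfp804a, at 1.89 in replicate 2. The Btn2a2 summit in that library had 18 reads over a background of 5.14, and the Zfp804a summit 16 reads over 3.85. Zfp804a was nonetheless among the strongest asynchronous regions, with folds of 44.3 and 44.5. Just outside, the strongest regions called in mitotic replicate 1 alone were at Spin1, Adnp and Map3k9, with mitotic folds of 9.14, 8.41 and 8.04. The strongest called in mitotic replicate 2 alone were at Ncoa1, Kank2 and Smarcb1, with folds of 6.77, 5.56 and 5.56. Several regions missed by 1 mitotic library were thus stronger in the other than the median member.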

How the data were processed

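Peak lists of 8 ChIP-seq libraries were used, SOX2 and CTCF in 2 mitotic and 2 asynchronous libraries each, grouped by sample titles. The tools named in the submitters' processing notes are MACS2 2.1.1.20160309, BWA 0.7.17, CASAVA 1.4 and SAMtools, with the build mm10. The sources used here give neither their options nor the control libraries. For each library the authors deposited a separate narrowPeak list with a fold (a ratio of coverage at the summit to local background) and −log10 p-values and −log10 q-values.

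Regions and calls were computed in Python 3.11.15 with pandas 2.3.3, NumPy 2.4.6 and SciPy 1.17.1, and overlaps were checked on simulated intervals against bedtools 2.31.1. Coverage and background were solved from fold and −log10 p up to 280 under MACS2's Poisson model, and known coverage was recovered from simulated peaks. Intervals are Wilson intervals at 95%. Genes, promoters and microRNAs came from RefSeq tables on GRCm38.p6, and 9 members on a chromosome with no promoter entry could not be placed at a listed start. Motif letters were searched on both strands.

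Members, gene lists and comparisons were chosen with earlier results of these data known. Genes named are the nearest protein-coding genes of the 15 members ranked highest in mitosis, 10 such at gene starts, 8 such away from gene boundaries and CTCF, the 5 weakest in asynchronous cells, 3 just inside and 6 just outside the threshold, the list genes with a member, and members near tRNA or microRNA genes. The octamer, chromosome, tRNA, Txlng, Frat1 and Frat2 mentions were chosen after their values were seen. Region sequences were not used here, and 1 list gene is not reported here.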

Additional observations from a re-analysis of the deposited data

How the results depend on the processing

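Peak thresholds, overlap rules, region sets, windows and each library in turn were varied, and chosen after seeing the data were the summit in place of the region at gene boundaries and leaving out the 7 members of high local background. The share of members at gene boundaries stayed above that of regions called in neither mitotic library under all of them, as did the CTCF shares. The number of members was 134 with a fold of at least 5, 202 with mitotic lists of equal length, 201 in the strongest 10% of regions, and 350 to 1740 with a SOX2 library left out, where leaving out mitotic replicate 2 gave 1740 and leaving out mitotic replicate 1 gave 390. The share at gene boundaries was 36.3% in the strongest 10% of regions (5.64% in neither), 62.8% with all annotated genes (23.4%), 38.4% at the summit (14.3%), and 45.9% to 57.2% with a SOX2 library left out, the highest when mitotic replicate 2 was. CTCF overlap was 43.8% with a CTCF −log10 q of at least 5 (16.99%), 26.6% with CTCF summits within 100 bp (9.71%), and 51.5% to 67.6% with a library left out, where it was 65.9% and 67.6% with a single asynchronous CTCF library. The mean mitotic CTCF share was 14.2% in the strongest 10% of regions (2.40%), 8.45% with CTCF summits within 100 bp (3.49%), and 18.3% to 25.2% with a library left out. The causes of these shifts were not tested, beyond fewer peaks or fewer libraries entering. The CTCF difference kept its sign throughout, from -52.0 to -18.5 percentage points, and from -48.4 to -39.9 with a library left out. With the replicate block, pairing libraries of the same number, it was -45.0 (exact sign-flip p = 0.5, the smallest 2 pairs allow). List genes with a member numbered 15 within 10 kb and 23 within 100 kb. The short list of mitotic replicate 2, with 408 peaks, limits which regions can be members, and the cause of its length was not tested.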
